A study of Mus musculus with 6 samples.

Results

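The muscle RING finger (MuRF) genes Trim63, Trim55 and Trim54 encode MuRF1, MuRF2 and MuRF3, a small family of ubiquitin ligases of heart and skeletal muscle. The 3 genes were taken by symbol, with no threshold on their values, and each had 1 probe set of its own among the 18782 uniquely named probe sets and 21212 probe sets in all. A ubiquitin ligase brings a ubiquitin-charged conjugating enzyme (E2) to a protein and so marks that protein for the proteasome. MuRF proteins carry an N-terminal RING finger, a B-box and a COS box, they form homo- and heterodimers, and they are found at the M-band of the sarcomere, at the Z-disc and on microtubules. MuRF1 is best known as a marker and mediator of muscle atrophy, and thick filament proteins are among its substrates. MuRF2 binds the kinase region of titin, and MuRF3 stabilizes microtubules.

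Gastrocnemius and plantaris muscles came from 4 tumor-bearing and 3 control mice, all male, of the CDF1 strain and 8 weeks old at the start of the experiment. The C26 mice had been given 500000 C26 colon carcinoma cells in 150 µL of PBS and Matrigel under the skin of the flanks, and the control mice had received PBS and Matrigel only. Muscles were taken 25 days after inoculation. RNA of 2 to 3 muscles of a group was combined into each of 3 C26 pools (replicates 1, 3 and 4) and 3 control pools (replicates 1, 2 and 3). Each pool had a whole-transcript array of its own. None of the sources used here says which mice gave which pool, so pools of a group may share a mouse and the p-values measure only the spread between pools. Values are log2 expression values as deposited, on which a difference of 1 is a 2-fold change. Array medians lay between 4.93 and 5.02, and arrays of 1 group correlated at 0.994 to 0.996 (Pearson, across probe sets), against 0.976 to 0.981 between the groups. A background of 3.82 was set at the 95th percentile of the mean levels of 1259 probe sets for olfactory and vomeronasal receptor genes, most of which are silent in muscle. All 3 MuRF genes lay well above it on every array.

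The proximal promoters are shown because the mouse Trim63 promoter is a known binding region of FoxO factors and of the glucocorticoid receptor, regulators whose own mRNA levels are given further on. The promoter table held Trim63 and Trim54, 2 of the 3 genes. The 250 bases before each transcript start are printed 5′ to 3′ from RefSeq (GRCm38.p6), at chr4:134314870-134315119 for Trim63 and chr5:31116362-31116611 for Trim54, both on the plus strand. Capitals mark matches, on either strand, to the FoxO motif GTAAACA, to the glucocorticoid receptor palindrome (GAACA and TGTTC with any 3 bases between) and to the E-box CANNTG, which myogenic factors bind.
Trim63: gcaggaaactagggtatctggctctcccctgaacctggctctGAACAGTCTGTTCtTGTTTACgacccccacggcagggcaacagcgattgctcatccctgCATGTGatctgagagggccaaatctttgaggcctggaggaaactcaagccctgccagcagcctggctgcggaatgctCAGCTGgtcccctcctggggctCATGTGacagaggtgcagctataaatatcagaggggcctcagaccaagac
Trim54: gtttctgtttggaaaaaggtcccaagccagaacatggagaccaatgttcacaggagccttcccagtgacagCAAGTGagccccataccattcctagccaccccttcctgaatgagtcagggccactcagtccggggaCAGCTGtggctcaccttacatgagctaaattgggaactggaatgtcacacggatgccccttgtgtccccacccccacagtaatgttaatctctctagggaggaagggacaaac

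In Trim63 the glucocorticoid receptor palindrome spanned bases 208 to 196 before the start, and the FoxO motif followed it at bases 194 to 188, without overlap. The palindrome occurred in 13 of 32851 mouse promoter windows of the same length (0.0396%) and the FoxO motif in 3.17% of them. Trim63 also held 3 E-box matches and Trim54 held 2, a motif found in 66.2% of windows. Neither window held a match to the kappaB, MEF2 or CArG motifs, to the C/EBP motif TTGCNNCAA or to the STAT motif TTCNNNGAA, which stood in 7.25%, 2.92%, 1.47%, 1.74% and 7.02% of windows. A match describes letters only, and binding was not measured on these arrays.

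**Figure D1:**
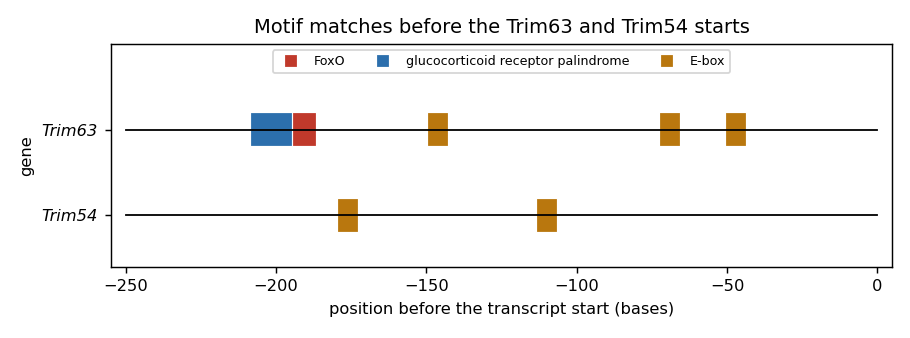
Motif matches (colored boxes) in the 250 bases before the transcript starts of Trim63 and Trim54, by distance from the start in bases (horizontal axis). The FoxO motif (bases 194 to 188) lies next to the glucocorticoid receptor palindrome (bases 208 to 196) in Trim63, and Trim54 shows E-box matches only.

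Of the MuRF genes in C26 muscle, Trim63 rose 7.25-fold, Trim55 fell 1.51-fold, and Trim54 was 1.41 times as high as in control muscle, which is short of the 1.5-fold minimum. A gene is said here to have risen or fallen where limma gave an adjusted p of at most 0.05 and the change was at least 1.5-fold (0.585 on the log2 scale). Thus 1 of the 3 genes rose and 1 fell, beside 5.94% of all probe sets that rose and 4.95% that fell. At the adjusted p alone 2 were higher and 1 was lower, beside 14.3% and 15.8% of all probe sets. The C26 and control pools did not overlap for any of the 3 genes, with C26 above for 2 genes (19.3% of all probe sets) and below for 1 (24.6%).

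Trim63, the MuRF1 gene, had values of 11.45, 11.66 and 11.50 in C26 replicates 1, 3 and 4, against 8.48, 8.57 and 8.98 in control replicates 1, 2 and 3. The lowest C26 pool stood more than 2 log2 units above the highest control pool, and the C26 pools lay closer together than the control pools, of which replicate 3 was the highest. The means were 11.54 ± 0.11 in C26 and 8.68 ± 0.27 in control muscle (SD, n = 3 each), a log2 change of 2.86 (SE 0.13, 95% interval 2.55 to 3.16, adjusted p = 3.94e-06 from limma). Among the 21212 probe sets this change ranked 9 by size of rise. Each C26 pool was shifted from the control mean by a similar amount, by 2.77 in replicate 1, 2.98 in replicate 3 and 2.82 in replicate 4.

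Trim55, the MuRF2 gene, went the other way. Its values were 6.93, 7.04 and 7.08 in C26 replicates 1, 3 and 4, against 7.64, 7.67 and 7.53 in control replicates 1, 2 and 3. Each C26 pool lay below each control pool, and both groups lay close together. The means were 7.02 ± 0.08 in C26 and 7.61 ± 0.07 in control muscle (SD, n = 3 each), a log2 change of −0.59 (SE 0.08, 95% interval −0.78 to −0.41, adjusted p = 0.000735 from limma). The change lay just past the 1.5-fold minimum. It fell short of it, at −0.55 without C26 replicate 1, −0.58 without control replicate 1, −0.57 without control replicate 2 and −0.53 with the arrays centered on their medians, while adjusted p stayed at or under 0.00419 in these settings. In bulk muscle, fewer cells that express a gene and less RNA of it per cell cannot be told apart.

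Trim54, the MuRF3 gene, had values of 9.25, 9.39 and 9.48 in C26 replicates 1, 3 and 4, against 8.88, 8.89 and 8.86 in control replicates 1, 2 and 3. All C26 pools were above all control pools, and the control pools nearly coincided. The means were 9.38 ± 0.12 in C26 and 8.88 ± 0.02 in control muscle (SD, n = 3 each), with a log2 change of 0.50 (SE 0.08, 95% interval 0.31 to 0.69, adjusted p = 0.00209 from limma). The interval reaches past the 1.5-fold minimum, so a change of that size is not excluded. With the 2 groups allowed unequal variances the adjusted p was 0.0825.

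**Figure D2:**
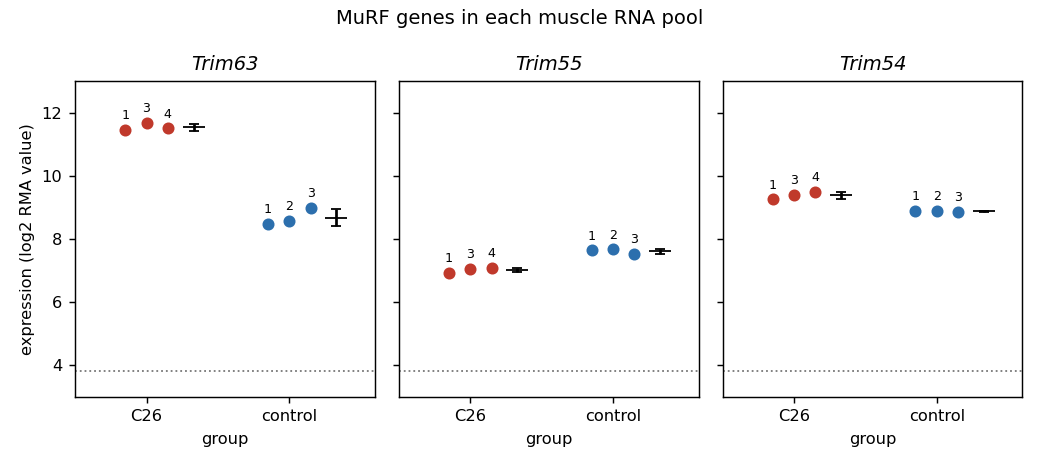
Expression (log2 RMA value, vertical axis) of Trim63, Trim55 and Trim54 in 3 C26 pools (red, left) and 3 control pools (blue, right), with replicate numbers, the mean and SD of each group in black, and the background of 3.82 as a dotted line. C26 pools lie above the control pools for Trim63 (means 11.54 and 8.68) and Trim54 (9.38 and 8.88) and below them for Trim55 (7.02 and 7.61).

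Whether the paralogs changed by different amounts was asked with their log2 difference within each array, which cancels the level of the array. Levels of different probe sets depend on their probes, so the size of a difference in 1 group has no meaning by itself and only its shift between groups is read. Trim63 minus Trim55 was 4.52, 4.62 and 4.42 in C26 replicates 1, 3 and 4, against 0.84, 0.91 and 1.45 in control replicates 1, 2 and 3. The shift of 3.45 (SE 0.20) is a 10.9-fold higher ratio of Trim63 to Trim55 signal in C26 muscle. For Trim63 minus Trim54 the means were 2.16 ± 0.13 in C26 and −0.20 ± 0.28 in control muscle (SD, n = 3 each), a shift of 2.36 (SE 0.18).

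Trim55 minus Trim54 gave the tightest values of the 3 pairs. It was −2.32, −2.35 and −2.40 in C26 replicates 1, 3 and 4, against −1.24, −1.23 and −1.33 in control replicates 1, 2 and 3, a shift of −1.09 (SE 0.04). In the C26 group Trim55 and Trim54 were each lowest in replicate 1 and highest in replicate 4. The C26 and control pools did not overlap for any of the 3 pairs. An exact two-sided permutation test gave p = 0.1 for each pair (adjusted p = 0.1 over the 3 pairs), the smallest value this test can give for 3 against 3 pools, so it cannot reach 0.05 here.

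**Figure D3:**
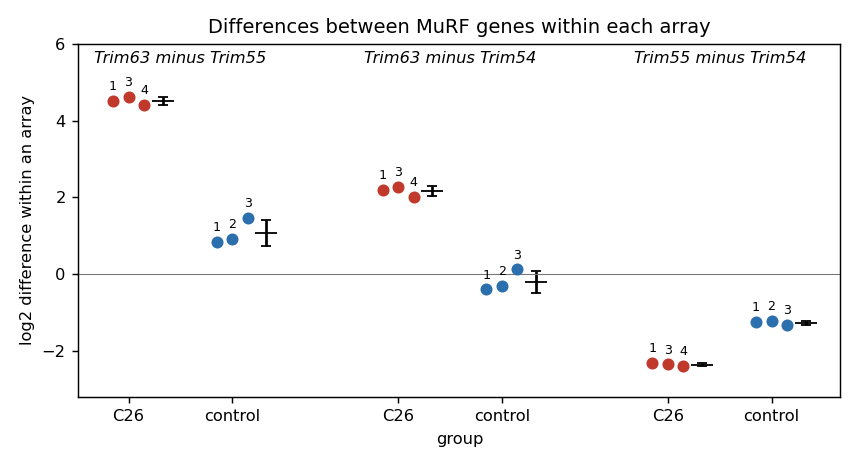
Log2 difference between 2 MuRF genes within each array (vertical axis) for the 3 pairs, in C26 pools (red, left) and control pools (blue, right), with replicate numbers and the mean and SD in black. The C26 pools are shifted up for Trim63 minus Trim55 (by 3.45) and Trim63 minus Trim54 (by 2.36), and down for Trim55 minus Trim54 (by 1.09).

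The other 6 genes that encode COS box TRIM proteins, which bind microtubules, showed 1 rise and no fall, beside 5.94% and 4.95% of all probe sets. Mid1 rose, with 7.70, 7.50 and 7.44 in C26 replicates 1, 3 and 4, against 7.03, 6.79 and 6.80 in control replicates 1, 2 and 3, a log2 change of 0.67 (SE 0.10, adjusted p = 0.00136 from limma). Trim46 (0.15), Trim67 (−0.02), Mid2 (−0.08), Trim9 (−0.22) and Trim36 (−0.24) did not pass, and Trim9 and Trim36 lay under the background in both groups. The median log2 change of the 6 genes was −0.05, as over all probe sets.

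Of 20 further ubiquitin ligase genes studied in muscle atrophy, 7 rose and 1 fell, beside 5.94% and 4.95% of all probe sets. Their median log2 change was 0.25, against −0.05 over all probe sets. The largest rise was in Fbxo32, the atrogin-1 gene, whose log2 change of 2.12 (SE 0.10) stood below the 95% interval of Trim63 (the difference itself was not tested). Among the other F-box genes, Fbxo31 rose by 1.55 and Fbxo30, the MUSA1 gene of denervation atrophy, by 1.05. Cblb, which encodes a ligase for the insulin receptor substrate IRS1, had values of 8.36, 8.43 and 8.49 in C26 replicates 1, 3 and 4, against 7.25, 7.32 and 7.60 in control replicates 1, 2 and 3. Its log2 change was 1.04 (SE 0.10, adjusted p = 0.00014 from limma), with all C26 pools above all control pools. Of the N-end rule ligases, Ubr2 rose by 0.61, and Ubr4, with a change of 0.56, did not reach 1.5-fold. Trim72, the membrane repair gene MG53, rose by 0.62. Trim32, whose protein ubiquitinates thin filament and Z-disc proteins, fell by 0.67 (SE 0.08), a change of about the size and direction of that of Trim55. Without C26 replicate 1 the number of falls was 2. The number of rises was 5 without C26 replicate 3 and 6 without control replicate 2 or 3. It was 8 without C26 replicate 4 or with the arrays centered on their medians.

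**Figure D4:**
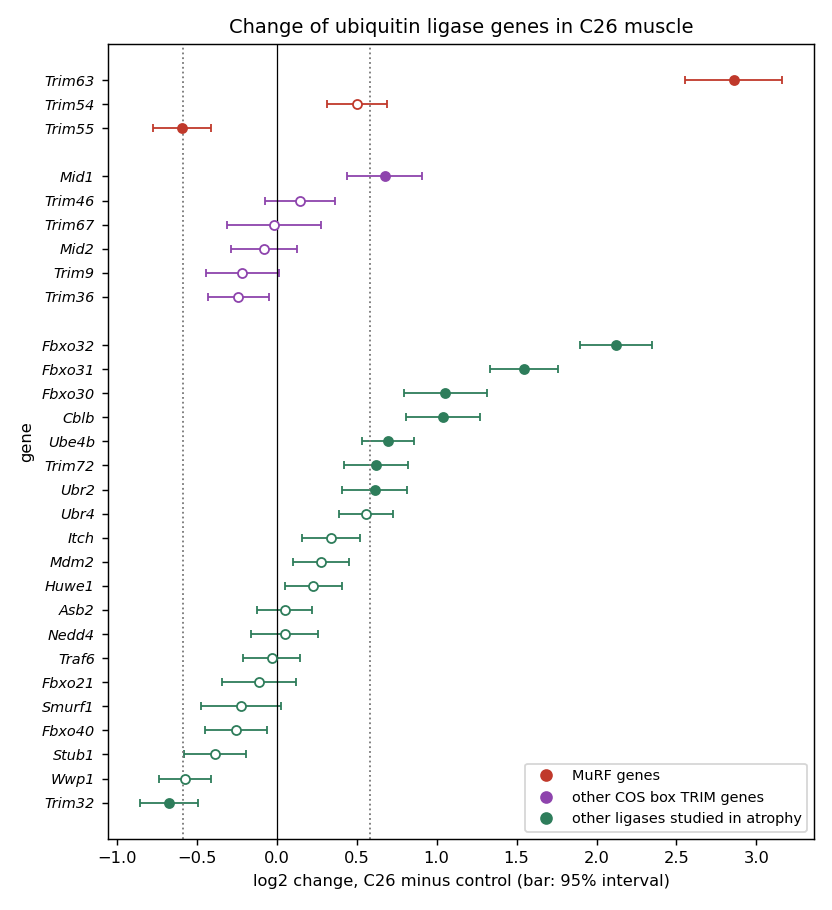
Log2 change of C26 minus control muscle (horizontal axis, bars are 95% intervals) for the 3 MuRF genes (red), 6 other COS box TRIM genes (purple) and 20 other ligase genes studied in atrophy (green). Filled points rose or fell, open points did not, dotted lines mark the 1.5-fold minimum of 0.585, and Trim63 at 2.86 lies farthest to the right, above Fbxo32 at 2.12.

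Of 9 measured genes of E2 enzymes that have been studied with MuRF proteins, 0 rose and 1 fell, beside 5.94% and 4.95% of all probe sets, and at the adjusted p alone 2 were higher and 3 were lower. Without C26 replicate 1 or control replicate 1 the number of rises was 1, and with the arrays centered on their medians it was 2. Ube2g1 was highest relative to control, with 9.82, 9.91 and 9.90 in C26 replicates 1, 3 and 4, against 9.36, 9.30 and 9.29 in control replicates 1, 2 and 3, a log2 change of 0.56 (SE 0.07). Ube2j1, which encodes an E2 of the endoplasmic reticulum, had a change of 0.52. Ube2n, whose enzyme builds lysine 63-linked chains, fell by 0.99 (SE 0.15, adjusted p = 0.00136 from limma). The UbcH5 genes Ube2d1, Ube2d2a and Ube2d3 had log2 changes of −0.37, −0.50 and 0.16.

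Of 18 measured factors that have been studied as regulators of Trim63, 9 rose, 2 fell and 7 were not called. Over all probe sets 5.94% rose and 4.95% fell. The median log2 change of the 18 was 0.74, against −0.05 over all probe sets. With the arrays centered on their medians or without C26 replicate 1 the number of rises was 10. Of the FoxO genes Foxo1 (2.08) and Foxo3 (1.35) rose and Foxo4 had a change of 0.05. Nr3c1, the glucocorticoid receptor gene, had 7.45, 7.37 and 7.27 in C26 replicates 1, 3 and 4, against 7.73, 7.69 and 7.71 in control replicates 1, 2 and 3. Its log2 change of −0.35 (SE 0.08, limma adjusted p = 0.00952) was under the 1.5-fold minimum. Klf15, a glucocorticoid-induced zinc finger factor, had 8.84, 9.04 and 9.10 in C26 replicates 1, 3 and 4, against 7.04, 7.01 and 7.17 in control replicates 1, 2 and 3. Its log2 change was 1.92 (SE 0.09), and no pools overlapped.

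Both C/EBP genes of the list rose, Cebpd by 2.46 and Cebpb by 1.37, as did Stat3 by 1.42 and Junb, whose protein opposes FoxO3 in muscle, by 1.13. Myog, which encodes myogenin, rose by 0.75, and Rela, the p65 gene of NF-κB, by 0.73 (SE 0.08). Smad3, a mediator of myostatin signaling, fell by 0.84 (SE 0.12). Mef2c, a myogenic enhancer factor gene, had 8.58, 8.45 and 8.31 in C26 replicates 1, 3 and 4, against 10.33, 10.33 and 10.26 in control replicates 1, 2 and 3, a log2 change of −1.86 (SE 0.09). Hdac5 (0.33), Tfeb (0.13), Hdac4 (−0.11) and Dach2 (−0.14, under the background) did not pass.

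Ppargc1a, the PGC-1α gene, whose product represses FoxO activity at atrophy genes, was split among the C26 pools. It had 7.07, 8.37 and 8.21 in C26 replicates 1, 3 and 4, against 7.13, 7.09 and 6.87 in control replicates 1, 2 and 3. C26 replicate 1 lay within the control range and the other two C26 pools far above it, and the log2 change of 0.86 (SE 0.29, adjusted p = 0.0588 from limma) did not pass. Trim63 showed no such split, with 11.45 in C26 replicate 1 and 11.66 and 11.50 in replicates 3 and 4. A relation between Ppargc1a and Trim63 was not tested.

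Of 16 genes of thick filament and other sarcomere proteins that bind MuRF proteins or are their substrates, 0 rose and 3 fell, all of them myosin light chain genes, with log2 changes of −0.70 for Mylpf, −0.65 for Myl1 and −0.63 for Myl3. Over all probe sets 5.94% rose and 4.95% fell. With the arrays centered on their medians 2 of the 16 genes fell. Myl1 had 11.53, 11.57 and 11.42 in C26 replicates 1, 3 and 4, against 12.19, 12.17 and 12.12 in control replicates 1, 2 and 3. The slow light chain gene Myl2 was lower by 0.53 and did not reach 1.5-fold. The myosin heavy chain genes Myh4 (−0.13), Myh1 (−0.12), Myh2 (−0.21) and Myh7 (−0.18), the actin gene Acta1 (−0.05) and the creatine kinase gene Ckm (−0.02) did not pass.

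**Figure D5:**
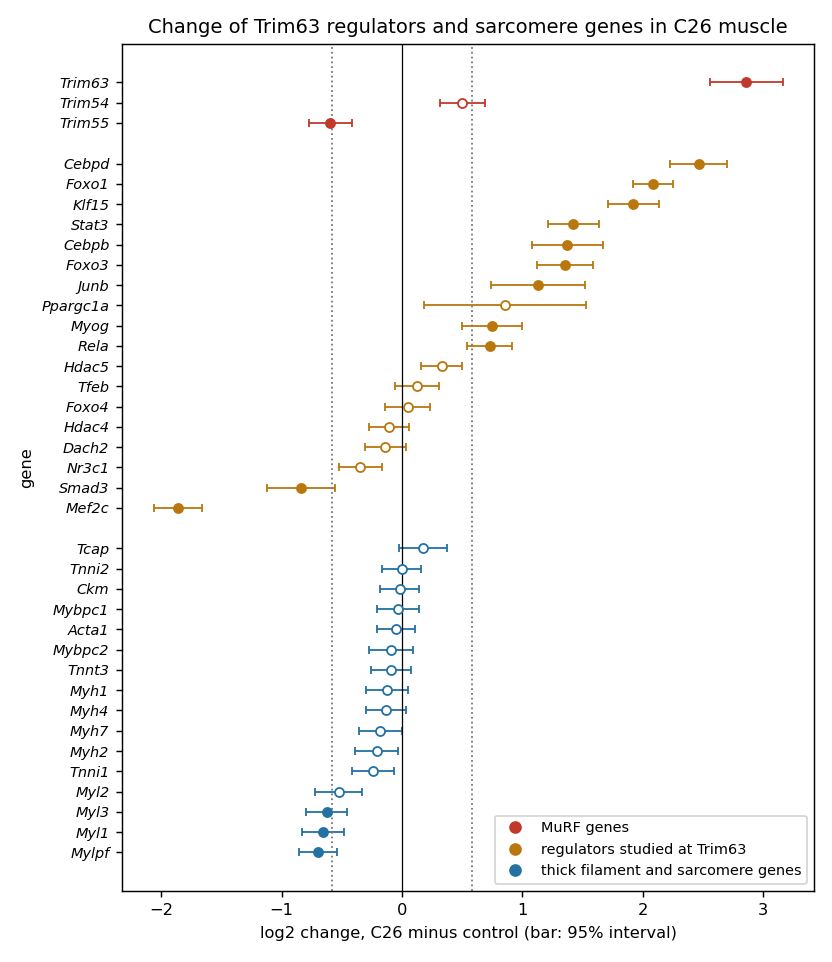
Log2 change of C26 minus control muscle (horizontal axis, bars are 95% intervals) for the 3 MuRF genes (red), 18 regulators studied at Trim63 (orange) and 16 thick filament and sarcomere genes (blue). Filled points rose or fell and open points did not; 9 regulators rose and 2 fell, whereas 3 sarcomere genes fell and 0 rose.

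MuRF2 takes part in a complex with the titin kinase, Nbr1 and p62 that acts on serum response factor. Of 8 measured genes for the M-band, this complex and nebulin, 2 rose and 0 fell, beside 5.94% and 4.95% of all probe sets. Sqstm1, the p62 gene, had 11.42, 11.66 and 11.66 in C26 replicates 1, 3 and 4, against 10.65, 10.67 and 10.66 in control replicates 1, 2 and 3, a log2 change of 0.92 (SE 0.09). Nbr1 rose by 0.69 (SE 0.08), and Srf was lower by 0.43 (adjusted p = 0.0019 from limma), under the 1.5-fold minimum. Ttn, the titin gene, had a change of −0.04. Among 10 genes of MuRF3 partners and microtubules, Flnc, the gamma-filamin gene whose protein MuRF3 ubiquitinates, rose by 0.97 (SE 0.13) and Tubb2b, a tubulin gene, fell by 0.59, just past the minimum. No gene of these 10 fell without control replicate 2, with median centering or by the methods' t-test, and 2 fell without C26 replicate 4 or control replicate 3. Fhl2, another MuRF3 substrate, had a change of −0.33 (adjusted p = 0.0592).

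The genes most like each MuRF gene were taken as those with the smallest root mean square distance over the 6 pools, each gene as log2 difference from its own control mean. Nearest to Trim63 were Acot1 (distance 0.0961), an acyl-CoA thioesterase gene, Vegfd (0.146), a lymphatic growth factor gene, and Tmem140 (0.20), a membrane protein gene, followed by Fkbp5 (0.208), a co-chaperone gene of steroid receptors, and Slc7a2 (0.260), a cationic amino acid transporter gene. Their log2 changes were 2.77, 2.78, 2.84, 2.63 and 2.75. The control mean of Acot1 (3.80) lay just under the background, so its change may be understated. This distance depends largely on the size of the change, so few genes could lie near the large rise of Trim63. Within a distance of 0.3 lay 6 genes for Trim63, 3495 for Trim55 and 3877 for Trim54, so the neighbors of the last 2 are a few among many. Nearest to Trim55 were Rbm38, Ndufb9, Desi2, Fstl1 and Sars2 (distances of 0.0227 to 0.0367), and nearest to Trim54 were Snrpb2, Blzf1, Snx2, Dapk1 and Pop4 (0.0150 to 0.0328).

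The tissue label was checked against marker genes, whose counts stand beside 5.94% of all probe sets that rose and 4.95% that fell. Of 10 skeletal muscle markers 0 rose or fell, and their mean log2 level was 12.06 to 12.16 over the C26 pools and 12.31 to 12.34 over the control pools. All 10 were somewhat lower in C26 muscle, with log2 changes of −0.53 to −0.02. At the adjusted p alone 3 were lower, Tnnc2 (−0.53), Pvalb (−0.51) and Mb (−0.47), short of the 1.5-fold minimum. The 8 cardiac markers had group means of 3.72 to 6.42, some of them close to the background, with none called, and 2 of 10 slow fiber and 2 of 12 fast fiber markers fell. Some markers of other cells differed between the groups. Of 10 neutrophil markers 7 rose (mean level 4.47 to 4.72 in C26 and 3.27 to 3.38 in control pools, the latter under the background). Ngp, among these 7, lay under the background in both groups. Of 9 macrophage markers 4 rose (5.99 to 6.06 and 5.45 to 5.49), and Adgre1 (0.002), Csf1r (0.02), Cx3cr1 (−0.11) and Fcgr1 (−0.11) did not pass. Lyz2 (0.44) was higher at the adjusted p alone, short of the 1.5-fold minimum. Of 10 fibroblast and tendon markers 5 fell (7.81 to 7.99 and 8.84 to 8.98). At the adjusted p alone 7 of them were lower and 2 higher, Pdgfra (0.50) and Thbs4 (0.43). Among 8 endothelial markers 1 rose and 1 fell, among 7 smooth muscle markers 1 fell, and among 7 satellite cell markers 1 fell. Leaving out 1 array changed some of these small counts: 1 slow marker rose and 1 fell without C26 replicate 1 or control replicate 1, 1 satellite cell marker rose without C26 replicate 3, and no endothelial marker rose without C26 replicate 1. With median centering 1 slow marker rose and 0 fell, and by the methods' t-test 1 slow marker fell and no endothelial marker rose. The part of these cells in the changes of the MuRF genes was not tested.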

How the data were processed

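Whole-transcript Affymetrix Mouse Gene 1.0 ST arrays measured 3 C26 and 3 control RNA pools. The authors made the deposited log2 values with RMA in GenePattern (background correction, quantile normalization, 1 value per gene; Brainarray custom CDF, version 13), so a shift common to most genes would be removed. The genome build behind the array annotation was not found in the sources used here. Probe sets were named by platform symbols, and 2420 had none. C26 and control pools were tested two-sided for each of 21212 probe sets by lmFit and eBayes of limma 3.58.1 (R 4.3.3), with Benjamini-Hochberg adjustment, and paralog differences by exact permutation in SciPy 1.17.1. The limma fit was tested on simulated data.

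The MuRF genes, the gene lists and the tests were chosen with earlier results of these data known. The rule for naming took the MuRF genes, up to 4 called genes by size of change per list, all COS box and regulator genes, and the 5 nearest profiles. A few further list genes, called or not, are named besides, chosen after their values were seen. Some genes of the lists were not analysed here. No set test was run. The alternatives were the t-test of the methods, unequal variances, other eBayes settings, leaving out dim probe sets, other scalings, a replicate block, other fold minimums and leaving out each array.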

Additional observations from a re-analysis of the deposited data

How the results depend on the processing

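The rise of Trim63 kept its direction and its call under all 15 alternatives (log2 change 2.76 to 3.01), and Trim54 stayed higher but under the 1.5-fold minimum (0.42 to 0.56). The fall of Trim55 kept its direction (−0.65 to −0.53) and was called under 11 of 15 alternatives. It missed 1.5-fold with median centering (−0.53) and without C26 replicate 1, control replicate 1 or control replicate 2 (leaving out each array gave −0.63 to −0.55). Accordingly 1 of the 3 genes was called with median centering or a 2-fold minimum, 3 without a fold minimum, and 1 to 2 when each array was left out. Median centering moved the share of rises among all calls to 64.6%, against 54.6% with the deposited values, and a test with unequal variances called 1381 probe sets in place of 2310. Differences between paralogs kept their direction under all 9 alternatives. Replicates 1 and 3 are shared by the groups, but nothing says that the number pairs them. Same-numbered pools did not deviate together (correlations −0.06 and −0.06), and a replicate block gave log2 changes of 2.82 for Trim63, −0.60 for Trim55 and 0.45 for Trim54. With 3 pools per group, the number of arrays limits the precision.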

Other observations

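The TRIM genes were also counted by symbol, a list added after the data were seen. Of 60 TRIM genes outside the MuRF family 2 rose and 4 fell, beside 5.94% and 4.95% of all probe sets, with a median log2 change of −0.08, and 41 lay above the background. The log2 changes of these 60 genes ran from −2.04 to 0.70, so that none came near the 2.86 of Trim63. Trim7, which encodes a ligase that binds glycogenin, had 4.14, 3.85 and 3.23 in C26 replicates 1, 3 and 4, against 5.89, 5.55 and 5.90 in control replicates 1, 2 and 3, and its log2 change was −2.04 (SE 0.21, adjusted p = 0.000177 from limma). Its C26 mean of 3.74 lay under the background of 3.82, so the size of this fall may be understated. Trim35 fell by 1.23 (SE 0.08), with 7.60, 7.63 and 7.61 in C26 replicates 1, 3 and 4, against 8.94, 8.88 and 8.71 in control replicates 1, 2 and 3. Trim13, a ligase gene of the endoplasmic reticulum, fell by 0.83, and Trim39 rose by 0.70.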
